A study of Homo sapiens with 6 samples.

Results

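Of 50 listed genes for protein phosphatase 1 (PP1), its regulatory subunits and the actin and postsynaptic scaffold proteins around spinophilin, 13 were measured in spinophilin-silenced and control SUM159 breast cancer cells. A gene counted as measured when 1 of the 53617 transcript clusters of the array carried its symbol in the platform annotation, and each of the 13 had 1 such transcript cluster. The 13 genes were PHACTR1, PHACTR2, PHACTR3, PHACTR4, SHANK2, HOMER1, CTTN, DBN1, CFL1, LIMK1, TIAM1, RGS4 and DCX. The other 37 were not analysed here. They include all 3 catalytic subunits of PP1 (PPP1CA, PPP1CB and PPP1CC), every listed regulatory subunit with a PPP1R symbol, neurabin (PPP1R9A), KALRN, RGS2, ACTN1, ACTN4 and DLG4. Spinophilin itself (PPP1R9B) was not analysed here either, so the degree of its silencing is not given. The values below therefore describe actin regulators and scaffold genes around spinophilin, and no gene of the PP1 enzyme itself.

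SUM159 is a basal-like breast cancer cell line. The silenced cells carried a lentiviral short hairpin RNA (shRNA) against spinophilin and the control cells a scrambled one, and both had been stably transduced and selected with puromycin. One shRNA sequence was used, and whether each sample had its own transduction is not stated. Total RNA of 3 samples per group, labelled 1, 2 and 2d, was hybridized to Affymetrix Human Gene 2.0 ST arrays. The methods call them biological triplicates, and what the letter d means is not stated.

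Spinophilin is a scaffold protein that binds filamentous actin and targets PP1, a serine and threonine phosphatase, to its substrates. PP1 catalytic subunits have little specificity of their own, and a regulatory subunit such as spinophilin decides where the enzyme sits and what it dephosphorylates. In neurons spinophilin is concentrated in dendritic spines, where it meets the cortical actin network and the scaffolds of the postsynaptic density. Described protein partners outside PP1 include the Rac exchange factor TIAM1, several RGS proteins, which shorten signalling by G proteins, and the microtubule-binding protein doublecortin. Among these partners TIAM1, RGS4 and DCX were measured, and RGS2 was not analysed here. In epithelial cells spinophilin has been placed at sites of cell contact.

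All values are log2 expression values, in which a step of 1 is a doubling, and differences are silenced minus control. The array medians lay between 5.19 and 5.23. The mesenchymal markers VIM, FN1, CD44, AXL and MSN had means over all arrays of 8.47 to 12.58, and CAV1 was not analysed here. The luminal markers ran from 4.18 for EPCAM and 4.28 for ESR1 to 8.43 for KRT18. Between these lay FOXA1 at 5.03, KRT19 at 5.87, KRT8 at 6.18 and GATA3 at 6.25. The means of KRT19, KRT8 and GATA3 were above the array medians. KRT18 had 2 transcript clusters with its symbol. The brighter one is given, and whether it lies at the KRT18 gene itself was not checked. The 5 measured mesenchymal and 7 measured luminal markers had 0 members past an adjusted p under 0.05 in limma, against 0.205% of all transcript clusters. At an unadjusted p under 0.05 they also had 0, against 7.39%. SYP, a neuronal marker, had a mean of 5.51, and RBFOX3, SNAP25 and the leukocyte markers were not analysed here. The difference of SYP was -0.17 (standard error 0.095, adjusted p = 0.788 from limma). Its silenced arrays all lay below its control arrays, and 12.7% of all transcript clusters had non-overlapping groups in either direction.

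None of the 13 genes passed the test for a change after spinophilin silencing. In limma, with Benjamini-Hochberg adjustment across the whole array, 0 of 13 passed an adjusted p under 0.05, where 0.205% of all transcript clusters did. At an unadjusted p under 0.05 the count was also 0 of 13, against 7.39% of all transcript clusters. The study's methods also ask for a change of 1.5-fold or more, and with that limit it was 0 of 13, against 1.33%. Unmoderated tests gave 0 of 13 after adjustment, but they also called 0 of all transcript clusters, so this count carries no information. The one with silencing alone put 2, DBN1 and PHACTR3, at an unadjusted p under 0.05, where it put 7.02% of all transcript clusters. The differences ran from -0.17 for DBN1 to 0.13 for PHACTR3, 5 above 0 and 8 below, with a median of -0.01 against -0.00 for all transcript clusters. The median size of the difference was 0.08 for the 13 genes and 0.09 for all transcript clusters. The smallest adjusted p among the 13 was 0.749, for DBN1. The number of arrays limits the precision, and the p-values reflect the spread among these samples.

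The intervals give the size of change these arrays leave room for. They come from the limma fit with each array as its own sample, without correction for the number of genes. In that fit the 95% interval of the difference lay inside 1.5-fold in both directions for each of the 13 genes. Of all transcript clusters 83.5% had such an interval. The widest interval was that of DCX, from -0.46 to 0.43, which reaches 1.37-fold lower. The interval of PHACTR2 was the narrowest in its farthest bound, from -0.20 to 0.19, which reaches 1.15-fold. These bounds hold for the deposited values and for this fit. Intervals under the alternative fits described below are not given. Whether all 13 genes stay inside 1.5-fold there was not tested, and DCX, with the widest interval, may not. Background correction and normalization can compress small differences of dim transcripts, and whether they did so here was not tested.

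**Figure D1:**
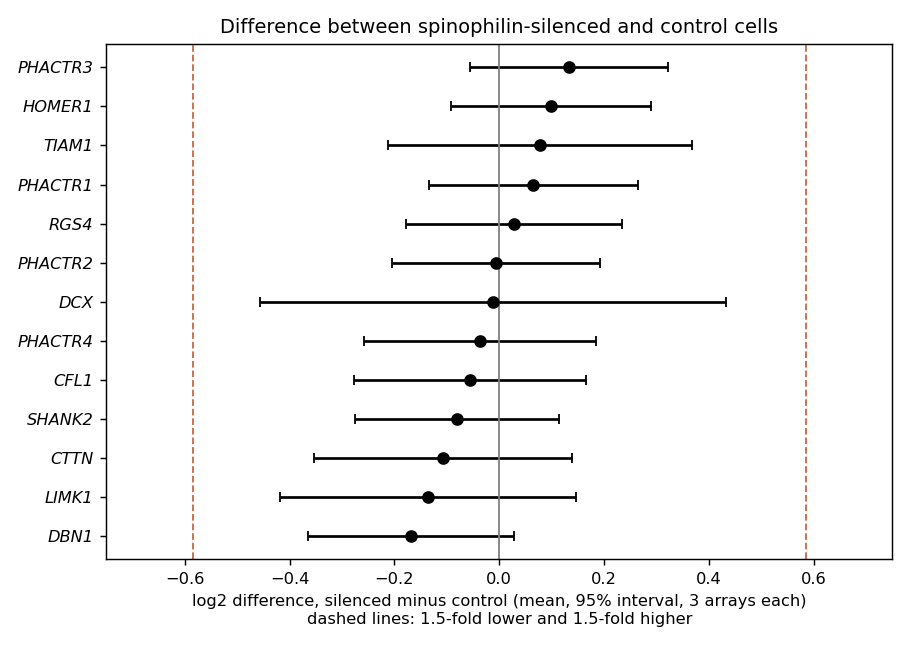
Difference between spinophilin-silenced and control cells for the 13 measured genes (x axis, log2 units, points are means and bars 95% intervals from limma, 3 arrays per group). Every bar crosses 0 and stays inside the dashed lines at 1.5-fold, with DBN1 at -0.17 and PHACTR3 at 0.13 as the outermost points.

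The PHACTR genes encode phosphatase and actin regulators, which bind PP1 on one side and monomeric actin on the other. Of this group PPP1R18, which encodes the actin-binding PP1 subunit phostensin, was not analysed here. PHACTR3, also called scapinin, gave 4.51, 4.47 and 4.36 on control arrays 1, 2 and 2d and 4.59, 4.59 and 4.57 on the silenced arrays in the same order. Every silenced array lay above every control array, by a gap of 0.05, and the silenced values spanned 0.02. The difference was 0.13 (standard error 0.080, adjusted p = 0.809 from limma).

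PHACTR1 gave 5.21, 5.16 and 5.06 in the control cells and 5.29, 5.14 and 5.21 in the silenced cells, in the order 1, 2 and 2d. The groups overlapped, and the difference was 0.07 (standard error 0.084), or 0.02 to 0.10 with 1 array left out. PHACTR2 gave 9.32, 9.30 and 9.41 in the control cells and 9.28, 9.29 and 9.43 in the silenced cells. In both groups array 2d was the highest, and the group means of 9.34 and 9.34 differed by -0.01 (standard error 0.084). PHACTR4 gave 9.96, 10.08 and 10.04 in the control cells and 10.11, 9.86 and 10.01 in the silenced cells. Its lowest and its highest value both came from silenced arrays, and the difference was -0.04 (standard error 0.094, adjusted p = 0.970 from limma). PHACTR2 and PHACTR4 lay above the upper quartile of every array, while PHACTR1 stayed below it and PHACTR3 below the median on all 6. Probes of different genes bind with different strength, so these positions do not order the genes by transcript number.

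**Figure D2:**
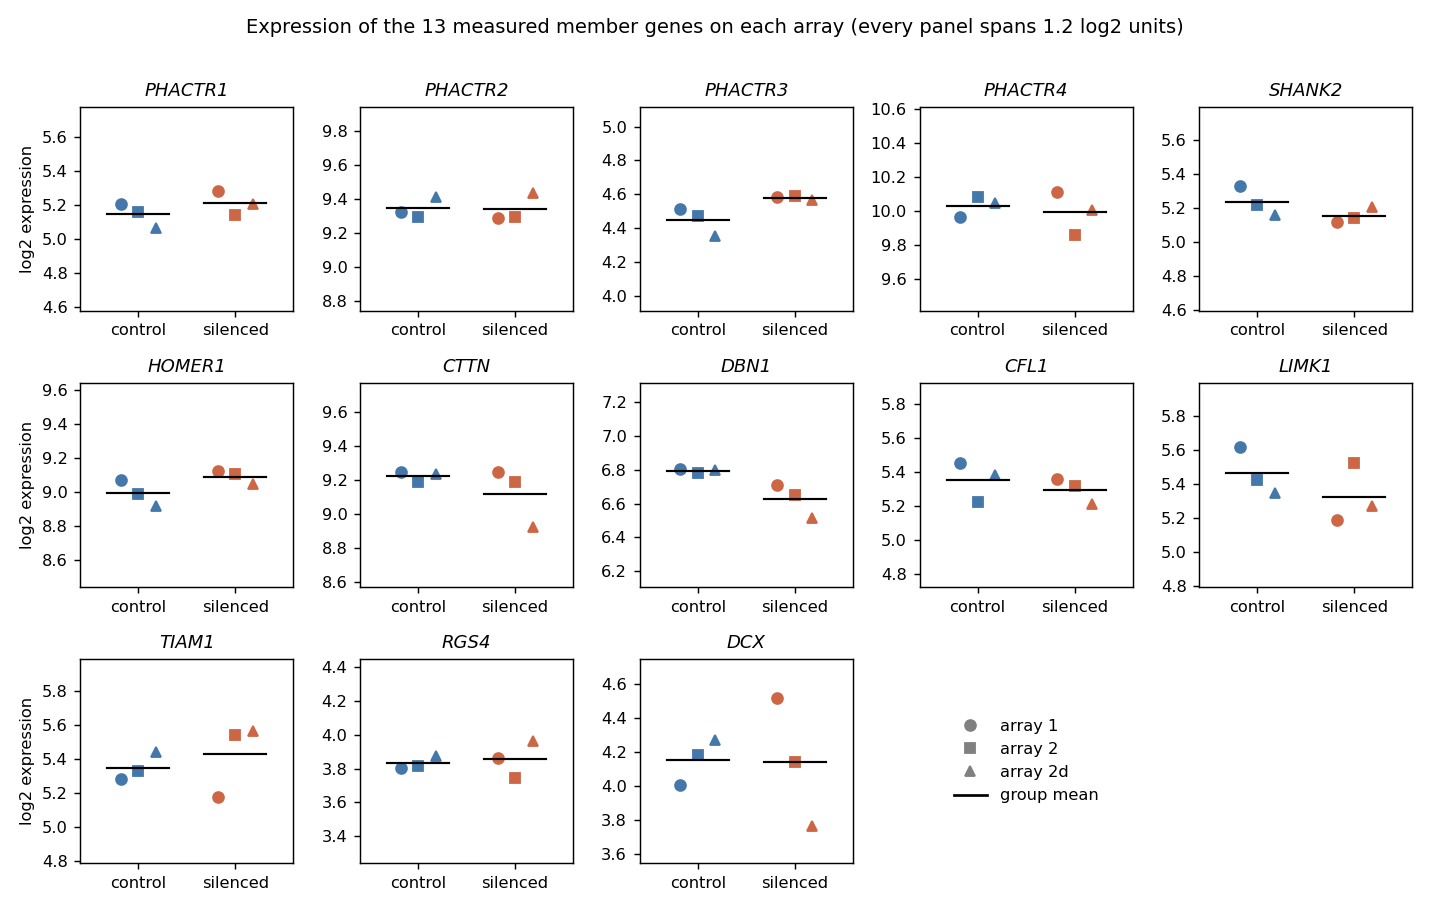
Log2 expression of the 13 measured genes on each array (y axis, every panel spans 1.2 log2 units), with control arrays in blue, spinophilin-silenced arrays in orange and the group means as lines. The groups are separate for DBN1 and PHACTR3, and the silenced arrays of DCX spread over 0.76.

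The actin genes measured were the filament-binding proteins drebrin (DBN1) and cortactin (CTTN), the filament-severing protein cofilin (CFL1), and LIMK1, the kinase that inactivates cofilin by phosphorylation. All 4 differences lay below 0, with a median of -0.12. In limma 0 of the 4 passed an adjusted p under 0.05, against 0.205% of all transcript clusters, or an unadjusted p under 0.05, against 7.39%. In the wider list of cofilin and actin turnover genes described below, 6 of the 14 measured genes lay above 0 and 8 below. DBN1, which binds the sides of actin filaments in dendritic spines, gave 6.80, 6.78 and 6.80 on control arrays 1, 2 and 2d and 6.71, 6.65 and 6.52 on the silenced arrays. Every silenced array lay below every control array, by a gap of 0.07. The difference was the largest of the 13 by size, -0.17 (standard error 0.083, 95% interval -0.36 to 0.03, adjusted p = 0.749 from limma). Its control arrays differed by 0.02 from lowest to highest, and the silenced arrays by 0.19. Without silenced array 2d, its lowest, the difference was -0.11. Of all transcript clusters 25.0% had a larger difference by size than DBN1.

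CTTN, which stabilises branched actin at the cell cortex, gave 9.25, 9.19 and 9.24 in the control cells and 9.24, 9.19 and 8.92 in the silenced cells. Silenced array 1 lay within the control range, array 2 at its lower edge, and array 2d stood below all others. The difference was -0.11 (standard error 0.10), and it was -0.01 without silenced array 2d and -0.17 without silenced array 1. LIMK1 gave 5.62, 5.43 and 5.35 in the control cells and 5.19, 5.52 and 5.27 in the silenced cells. Silenced array 2 lay inside the control range and the other silenced arrays below it, for a difference of -0.14 (standard error 0.12, adjusted p = 0.883 from limma). Leaving out silenced array 2 gave -0.23 and leaving out control array 1 gave -0.06. CFL1 gave 5.45, 5.22 and 5.38 in the control cells and 5.36, 5.32 and 5.21 in the silenced cells. These values overlapped, with a difference of -0.06 (standard error 0.094), and it was -0.01 without control array 1 and -0.12 without control array 2. The mean of CFL1 over all arrays was 5.33, near the array medians. Whether this transcript cluster follows CFL1 RNA was not tested.

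The postsynaptic scaffold genes SHANK2 and HOMER1 were measured, and DLG4 was not analysed here. Shank proteins form a platform under the postsynaptic membrane, and Homer proteins link them to glutamate receptors and to calcium channels of the endoplasmic reticulum. HOMER1 gave 9.07, 8.99 and 8.92 on control arrays 1, 2 and 2d and 9.12, 9.10 and 9.05 on the silenced arrays. Silenced arrays 1 and 2 lay above all control arrays and array 2d below control array 1. The difference was 0.10 (standard error 0.081, adjusted p = 0.871 from limma), and HOMER1 lay above the upper quartile of every array. SHANK2 gave 5.33, 5.22 and 5.16 in the control cells and 5.12, 5.14 and 5.21 in the silenced cells, with overlapping groups. Its difference was -0.08 (standard error 0.082), and it was -0.03 without control array 1. For HOMER1 it was 0.06 without control array 2d.

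The described spinophilin partner TIAM1, which activates the small GTPase Rac, gave 5.28, 5.33 and 5.44 in the control cells and 5.18, 5.54 and 5.56 in the silenced cells. Silenced arrays 2 and 2d lay above every control array and silenced array 1 below every one. The difference of 0.08 (standard error 0.12, adjusted p = 0.942 from limma) thus rested on silenced arrays 2 and 2d, and silenced array 1 lowered it. Without silenced array 1 the difference was 0.20, without silenced array 2 0.02 and without silenced array 2d 0.01. None of these passed in limma. KALRN, a related exchange factor, was not analysed here.

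RGS4, which speeds up the switching-off of G protein alpha subunits, gave 3.80, 3.81 and 3.88 in the control cells and 3.86, 3.75 and 3.96 in the silenced cells. The control range lay wholly inside the silenced range, and the difference was 0.03 (standard error 0.087). On 4 of 6 arrays its value was below the lower quartile of that array. DCX, the doublecortin gene on chromosome X, is known from migrating young neurons, where its protein binds microtubules. It gave 4.01, 4.19 and 4.27 in the control cells and 4.52, 4.14 and 3.76 in the silenced cells. The highest and the lowest of its 6 values were both silenced arrays, and the group means of 4.16 and 4.14 differed by -0.01 (standard error 0.19, adjusted p = 0.996 from limma). Without silenced array 2d the difference was 0.18 and without silenced array 1 it was -0.20. The arrays come without a detection call for each transcript cluster, and RGS4 and DCX lay below the median on all 6 arrays.

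DBN1, lower, and PHACTR3, higher, were the 2 genes whose groups did not overlap, which is 15.4% of the 13. Over all transcript clusters 12.7% had such groups, 6.43% with the silenced arrays higher and 6.27% with them lower. Without silenced array 2d the count was 5 of 13, against 23.2% of all transcript clusters, and without silenced array 1 it was 4, against 24.7%.

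**Figure D3:**
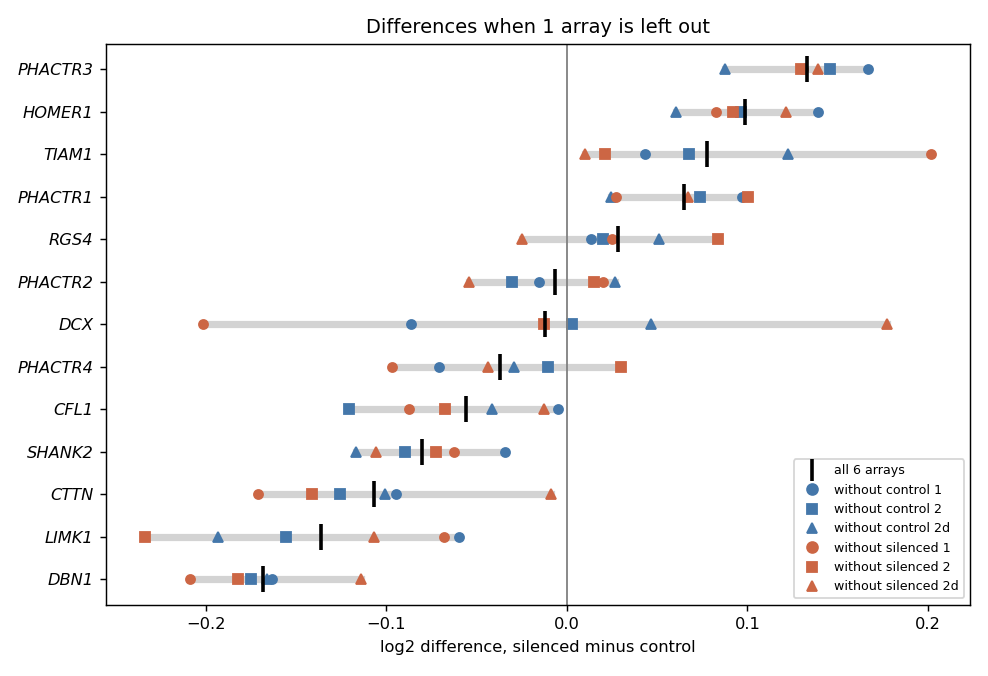
Difference between silenced and control cells (x axis, log2 units) with all 6 arrays (black bar) and with each array left out in turn (blue symbols for a control array, orange for a silenced array). DBN1 stays between -0.21 and -0.11 and PHACTR3 between 0.09 and 0.17, while DCX runs from -0.20 to 0.18.

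The spread within groups was larger in the silenced cells for 8 of the 13 genes, against 53.0% of all transcript clusters. The median standard deviation (SD) over 3 arrays was 0.079 in the control cells and 0.098 in the silenced cells for these genes, and 0.12 and 0.13 for all transcript clusters. DCX had the highest SD in the silenced cells, 0.38, and 5.81% of all transcript clusters had a higher one. PHACTR3 had the lowest, 0.011, and 99.2% of all transcript clusters had a higher one. Between 2 control arrays the values of the 13 genes differed with an SD of 0.092 to 0.15, and between 2 silenced arrays with 0.18 to 0.27, or 0.15 to 0.19 without DCX. Over all transcript clusters these ranges were 0.267 to 0.298 and 0.280 to 0.306. The difference in spread was not tested.

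**Figure D4:**
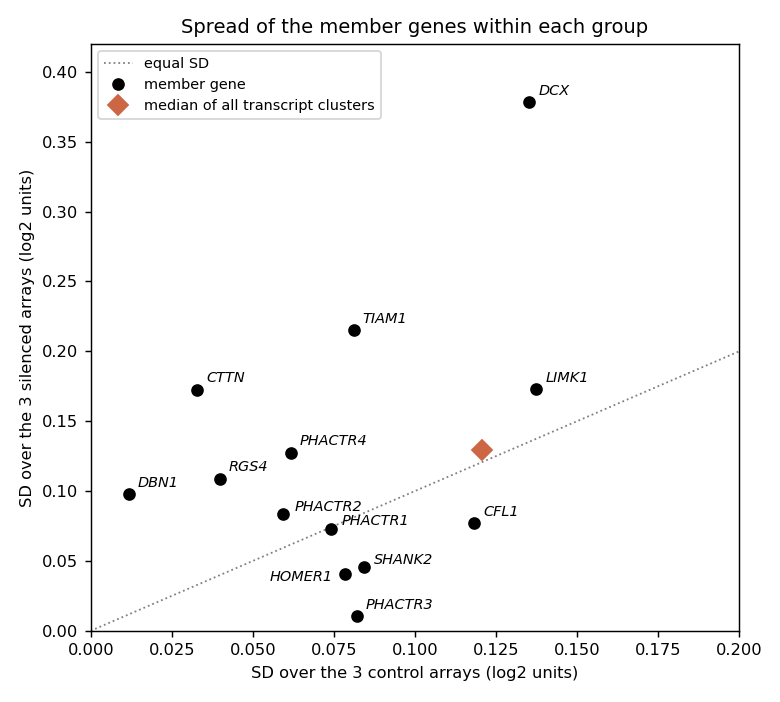
SD over the 3 silenced arrays (y axis) against SD over the 3 control arrays (x axis), both in log2 units, for the 13 genes (black) and for the median of all transcript clusters (orange diamond). DCX stands highest at 0.38, and 8 of 13 genes lie above the dotted line of equal SD.

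Wider lists of genes around the same machinery had 45 measured genes of 93 listed. In limma 0 of these 45 passed an adjusted p under 0.05, against 0.205% of all transcript clusters, and 0 passed an unadjusted p under 0.05, against 7.39%. Their differences ran from -0.27 to 0.25, with a median of 0.00. Further PP1-binding proteins had 15 measured genes of 30, with 8 above 0 and 7 below and a median of 0.02. NEK2, a centrosomal kinase that PP1 opposes, was the one of these with the largest difference, 0.24 (standard error 0.12, adjusted p = 0.747 from limma). Its silenced arrays, at 7.98, 8.08 and 8.09, all lay above its control arrays, at 7.96, 7.90 and 7.58. Other described partners of spinophilin had 13 measured genes of 23, with 8 above 0 and 5 below and a median of 0.01. The alpha-2 adrenergic receptor gene ADRA2A had a difference of -0.27 (standard error 0.18). DRD2, the D2 dopamine receptor gene, had -0.12 (standard error 0.078). The groups overlapped for ADRA2A and not for DRD2. Besides RGS genes, CDKN2A, ADRA2B, ADRA2C, TGOLN2, RASGRF1, CAMK2A and CDK5 were measured. Their differences lay between -0.15 for TGOLN2 and 0.09 for CAMK2A. The RGS genes of this list had differences of 0.14 for RGS1, 0.22 for RGS8, 0.01 for RGS9 and 0.04 for RGS16. Their standard errors were 0.095, 0.13, 0.095 and 0.10 in that order, and the groups of each overlapped. Cofilin and actin turnover genes had 14 measured genes of 28, with 6 above 0 and 8 below and a median of -0.03. Among them LIMK2, the paralog of LIMK1, had a difference of -0.25 (standard error 0.16). The cofilin paralog CFL2 had -0.05 (standard error 0.084). Other postsynaptic scaffolds had 3 measured genes of 12, SHANK1 with 0.25 (standard error 0.15), HOMER2 with 0.01 and HOMER3 with -0.01. The means over all arrays were 3.56 for RGS1, 4.33 for ADRA2A, 4.62 for SHANK1 and 4.73 for RGS8, below the array medians. Those of NEK2 and LIMK2, at 7.93 and 6.30, were above them. The groups did not overlap for 4 of the 45 genes, NEK2 and TMOD3 higher and DRD2 and YLPM1 lower, which is 8.89% against 12.7% of all transcript clusters.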

How the data were processed

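The authors deposited log2 expression values. Per the labels and the methods they ran RMA in Partek 6.6, which subtracts background, gives the 6 arrays one common distribution, combines probes by median polish and takes logs. The base is not stated and was taken as 2, since the highest value is 13.7. Quantile normalization removes any difference in total RNA, so each change is relative to the rest of the array.

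The table was used unfiltered (53617 transcript clusters). The platform annotation named 16098 of them, with symbols updated through RefSeq on GRCh38.p14, and 37519 are unnamed here and may include listed genes. A gene with several transcript clusters was represented by the brightest. The annotation's genome build is not stated, so positions are left out.

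The comparison of silenced with control cells used limma 3.58.1 (lmFit, eBayes) under R 4.3.3 and had no covariates, since the second factor of the two-way analysis in the methods is not named. P-values were adjusted across the whole array, and the threshold was 0.05. An exact permutation test of 1 gene cannot pass with 3 arrays per group. The fit was checked on simulated arrays with known changes. The 50 genes, the wider lists, the markers and the named genes were chosen with earlier results of these data known. The named genes were every measured member, the measured spinophilin partners of the wider lists, and other wider-list genes. These others had non-overlapping groups, large differences or a paralog among the members. The values of TMOD3, YLPM1 and the spinophilin partners other than ADRA2A and DRD2 had been seen when they were named. Alternatives were the replicate label, arrays 2 and 2d averaged, a filter on dim transcript clusters, 2 scalings, variance models, unmoderated tests, the mean over transcript clusters of a gene and leaving out each array.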

Additional observations from a re-analysis of the deposited data

How the results depend on the processing

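The count of the 13 genes past an adjusted p under 0.05 was 0 in limma and in each of the 15 alternatives, as was the count by the methods' criteria and that of the wider lists. After adjustment the unmoderated tests called 0 of all transcript clusters, so they could not call a gene here. The other alternatives called from 12, with arrays 2 and 2d averaged, to 161, with only transcript clusters above the median level. The unmoderated test with silencing alone put 2 genes, DBN1 and PHACTR3, at an unadjusted p under 0.05, as it did 7.02% of all transcript clusters, and no other alternative put any there. Of the 13, 9 kept the sign of their difference in every alternative that could be fitted to them. With arrays 2 and 2d averaged, the signs turned for PHACTR4 (0.0102) and DCX (0.119), and 5 genes had non-overlapping groups (34.1% of all transcript clusters). With only transcript clusters above the median level, 8 of the 13 remained in the fit, their median difference was -0.0463 and 1 had non-overlapping groups (14.6% of all transcript clusters). With 1 array left out, the median ran from -0.0624 to 0.0245 and the count of non-overlapping groups from 3 to 5 (20.6% to 24.7% of all transcript clusters). PHACTR2 then ran from -0.0544 to 0.0269, PHACTR4 from -0.0969 to 0.0301, RGS4 from -0.0249 to 0.0839 and DCX from -0.201 to 0.177.

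The deviations of same-numbered arrays from their group means correlated at 0.012, 1.57e-05 and 0.093 for 1, 2 and 2d. The best match of control arrays 1, 2 and 2d was silenced array 2, 1 and 2d in that order. Whether same-numbered arrays were handled together is not stated, and these correlations cannot decide it. With the replicate number as a block the count of the 13 genes was 0, and that of all transcript clusters moved from 110 to 40. The cause of these shifts was not tested. With 3 arrays per group and no detection calls, small differences of dim transcripts were not resolved.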
